A study of Mus musculus with 4 samples.

Results

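MicroRNAs (miRNAs) miR-375 and miR-7, known from hormone-secreting cells, were followed through small RNA libraries of sorted Kit-positive gut cells from leptin-deficient and control mice. The deposited table of 982 entries was searched by name for the arms of miR-375, miR-7a and miR-7b. It held 4 of them: 1 miR-375 entry, mmu-miR-375-3p, and 3 miR-7 entries, mmu-miR-7a-5p, mmu-miR-7b-5p and mmu-miR-7a-1-3p, written without the species prefix from here on. The sort was aimed at interstitial cells of Cajal (ICC), the pacemaker cells of the gut muscle, which carry the receptor tyrosine kinase Kit. The sorted cells came from mice labelled Lepob/ob;KitcopGFP/+ (ob/ob), called diabetic, and from mice labelled Lepob/+;KitcopGFP/+ (ob/+), called healthy and wild type although they carry 1 copy of the ob allele of leptin. All mice were of strain C57BL/6, aged 11 to 20 weeks, and all carried the copGFP reporter on 1 copy of Kit, so the controls share that alteration and the reporter marks whatever Kit-expressing cells were in the tissue. Whole jejunum or colon was dissociated, GFP-positive cells were sorted, and the RNA of a genotype was pooled (15 each, per the labels). There were 4 libraries, ob/ob jejunum, ob/+ jejunum, ob/ob colon and ob/+ colon, with 1 library per group. Libraries of miRNAs hold no Kit mRNA, so the cell label could not be checked against its defining marker.

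A miRNA acts as a short guide in an Argonaute protein and represses mRNAs that pair with its seed, bases 2 to 8 counted from the 5′ end. One arm of the hairpin usually becomes the guide, and the other arm is mostly degraded. miR-375 is abundant in pancreatic islets, where it restrains insulin release and is needed for a normal number of hormone cells, and it is also made in the gut epithelium and its enteroendocrine cells. miR-7 is conserved from insects to mammals, is enriched in neuroendocrine cells, islets and neurons, and in beta cells dampens growth signalling through mTOR. It is also the miRNA bound by the circular RNA Cdr1as in neurons.

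The mature sequences of miR-7 are shown because its main entries are near-identical. RefSeq (GRCm38.p6) held 3 of the 4 entries, which are shown 5′ to 3′ with the seed in capitals and, in the first pair, the base at which they differ in capitals too.
miR-7a-5p: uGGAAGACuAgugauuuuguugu
miR-7b-5p: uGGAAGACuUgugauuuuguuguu
miR-7a-1-3p: cAACAAAUcacagucugccaua
The first pair share the seed GGAAGAC, and no other table entry found in the RefSeq table has it (745 entries were found there). They differ by the substitution A10U, from miR-7a-5p to miR-7b-5p and counted from the 5′ end, and by 1 extra U at the 3′ end of miR-7b-5p. miR-7a-5p has 23 bases and comes from a pair of genes, Mir7-1 on chromosome 13, minus strand, and Mir7-2 on chromosome 7, plus strand, which give the same mature sequence. miR-7b-5p has 24 bases and comes from Mir7b on chromosome 17, plus strand. miR-7a-1-3p, the other arm of the Mir7-1 hairpin, is specific to that gene. In the GRCm38 annotations Mir7-1 lies in an intron of Hnrnpk, an RNA-binding protein gene, on the same strand. Mir7-2, between Det1 and Aen, Mir7b, between Dpp9 and Fem1a, and Mir375 on chromosome 1, between Cryba2 and Cfap65, overlap no other annotated gene.

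The libraries held 433201 miRNA counts in ob/ob jejunum, 466335 in ob/+ jejunum, 267077 in ob/ob colon and 716476 in ob/+ colon. Levels are given as CPM, the usual counts-per-1e6 unit, on library sizes corrected with TMM, the trimmed mean of M-values. A single count stood for 2.37 CPM in ob/ob jejunum, 2.28 in ob/+ jejunum, 3.15 in ob/ob colon and 1.52 in ob/+ colon. The floor that a count of 0 leaves, set at 3 counts, was 7.12, 6.84, 9.45 and 4.55 CPM for these libraries. Of the mappable reads, 12.3% were counted as miRNA in ob/ob jejunum against 22.5% in ob/+ jejunum, and 10.6% in ob/ob colon against 26.3% in ob/+ colon. Each ratio is therefore relative to the rest of a library's miRNAs. Intervals and floors reflect counting error alone, because each group had 1 library. PCR copies could not be recognised without molecular identifiers, and the intervals do not allow for them. In pooled cells, fewer cells of a type and less RNA per cell cannot be told apart.

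miR-375-3p was a rare miRNA of these cells and was lower in the ob/ob library of each tissue. Its counts were 4 in ob/ob jejunum and 51 in ob/+ jejunum, and 3 in ob/ob colon and 20 in ob/+ colon. These counts correspond to 9.49 CPM in ob/ob jejunum (exact Poisson 95% interval 2.59 to 24.3) against 116 CPM in ob/+ jejunum (86.6 to 153). In colon they correspond to 9.45 CPM in ob/ob (1.95 to 27.6) against 30.4 CPM in ob/+ (18.5 to 46.9). The ob/+ jejunum library stood above the other 3 by its interval, while the intervals of ob/+ colon and of both ob/ob libraries overlapped. Ranked by count among the 982 entries, miR-375-3p was at place 318 in ob/ob jejunum against 144 in ob/+ jejunum, and at 304 in ob/ob colon against 215 in ob/+ colon.

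Within jejunum, miR-375-3p was 12.3-fold lower in ob/ob than in ob/+ (exact conditional binomial 95% interval 4.51 to 46.7). Within colon it was 3.21-fold lower, on 3 ob/ob counts, which is the floor itself, with an interval of 0.953 to 16.9 that includes no difference. On log2 CPM with a prior count of 2 these ratios were -3.12 and -1.33. Only 9 of the 322 entries tested had a lower ratio in jejunum, and 39 had a lower one in colon; of all entries tested, 18.0% were lower by at least 2-fold in ob/ob jejunum and 17.4% in ob/ob colon. The difference between the tissues' log2 ratios, colon minus jejunum, was 1.92 with a counting interval of -0.98 to 4.62. With 1 library per group it had no replicate test.

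**Figure D1:**
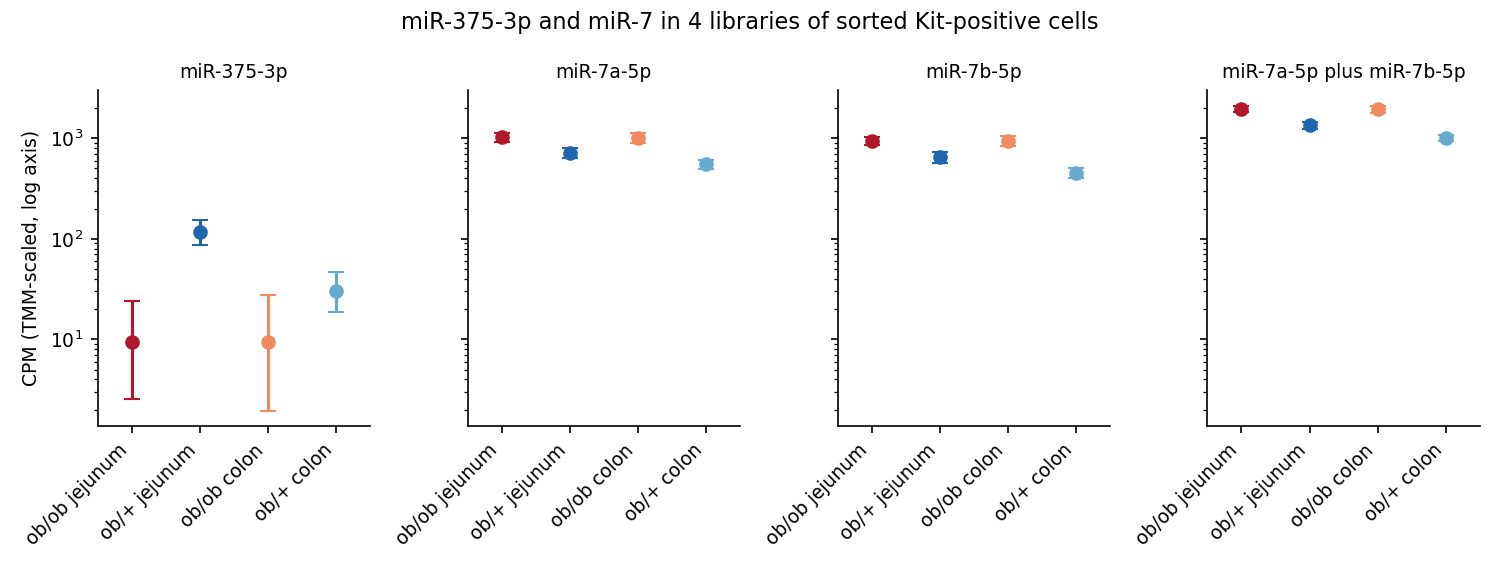
Level of miR-375-3p, miR-7a-5p, miR-7b-5p and the sum of the last pair in each of the 4 libraries, as CPM on a log axis; points are single libraries and bars the exact Poisson 95% interval of the count. miR-375-3p stands at 9.49 and 9.45 CPM in the ob/ob libraries of jejunum and colon, against 116 and 30.4 CPM in ob/+. The miR-7 points range from 455 CPM (miR-7b-5p in ob/+ colon) to 1962 CPM (the sum in ob/ob jejunum) and are higher in ob/ob than in ob/+ of the same tissue.

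Over both tissues miR-375-3p fell in ob/ob in edgeR's quasi-likelihood test, fitted with a tissue term (log2 change -2.90 with an SE of 0.59, obtained from F; Benjamini-Hochberg adjusted p = 0.0343; lower in 2 of 2 tissues). miR-375-3p was under 10 CPM in each ob/ob library and reached the mean of 10 CPM needed for testing through its ob/+ levels. Of the 322 entries tested, 10.2% were called lower and 7.76% higher in ob/ob, 33 and 25 entries. Their number was 28 and 44 with library totals alone, 49 and 58 with hairpin entries left out, and 160 and 18 scaled to mappable reads. The median log2 change of the entries tested was -0.12, against 0.12 with library totals and -1.02 scaled to mappable reads. The call sat near the 0.05 threshold: the adjusted p was 0.0699 in limma-voom, 0.0541 in DESeq2 with its own size factors and 0.135 with no abundance filter, and it ranged from 1.04e-07 to 0.257 over 14 alternatives. Libraries were also left out 1 at a time, in fits lacking the tissue term. Leaving out ob/+ jejunum gave a log2 change of -1.52 (adjusted p = 0.0987). The call was lost as well on leaving out ob/ob jejunum (-2.89, adjusted p = 0.257) or ob/ob colon (-2.76, adjusted p = 0.253). It was kept on leaving out ob/+ colon (-3.58, adjusted p = 0.00233).

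Between tissues, miR-375-3p was lower in colon than in jejunum of ob/+ mice, at 30.4 against 116 CPM, a 3.83-fold difference (counting interval 2.25 to 6.79). Only 4 of the 322 entries tested had a lower ratio in that pair, in which 8.07% were at least 2-fold lower and 3.73% at least 2-fold higher in colon. In ob/ob the colon library, at 9.45 CPM, and the jejunum library, at 9.49 CPM, did not differ beyond counting error (colon over jejunum 0.996-fold, 0.146 to 5.88), in a pair in which 2.80% of entries were at least 2-fold lower and 4.97% at least 2-fold higher in colon. Over both genotypes the tissue effect did not pass (log2 change -1.60 ± 0.52 SE, edgeR adjusted p = 0.951). edgeR called 0 of 322 entries by tissue (0.00% lower and 0.00% higher), although 14 had an unadjusted p under 0.05. limma-voom gave such a p to 14 entries and DESeq2 to 6. Without the ob/+ jejunum library, in a fit lacking the genotype term, the log2 change of miR-375-3p was 1.03. Jejunum was then the ob/ob library alone, so this value cannot separate tissue from genotype.

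miR-7a-5p and miR-7b-5p were more abundant, at ranks 49 and 52 of the 982 entries in ob/ob jejunum and 48 and 51 in ob/ob colon. In ob/+ they were at ranks 62 and 67 in jejunum and 70 and 79 in colon. Their levels relative to other miRNAs were higher in ob/ob than in ob/+ in each tissue. The deposited counts of miR-7a-5p were 429.8 in ob/ob jejunum and 310.2 in ob/+ jejunum, and 320.0 in ob/ob colon and 364.5 in ob/+ colon. Those of miR-7b-5p were 397.2 and 281.8 in ob/ob and ob/+ jejunum, and 296.0 and 299.5 in ob/ob and ob/+ colon. The counts were fractional in 3 of the 4 libraries, while the sum of the pair was whole in all 4 (within 1e-06). Fractions of one entry were thus completed by the other, and the rule for dividing reads is not given in the sources used here. miR-7a-5p took 52.0% of the sum in ob/ob jejunum against 52.4% in ob/+ jejunum, and 51.9% in ob/ob colon against 54.9% in ob/+ colon. The split between the near-identical entries is uncertain, so they are not independent of each other, and their sum is given beside each of them.

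The sum held 827 counts in ob/ob jejunum and 592 in ob/+ jejunum, and 616 counts in ob/ob colon and 664 in ob/+ colon. In CPM it reached 1962 in ob/ob jejunum (exact Poisson 95% interval 1830.5 to 2100.3) against 1351 in ob/+ jejunum (1244 to 1464). In colon it reached 1939.7 CPM in ob/ob (1789.6 to 2099) against 1008 CPM in ob/+ (933 to 1087). The ob/ob intervals lay above the ob/+ intervals in each tissue, and the ob/ob libraries did not differ beyond counting error between tissues (colon over jejunum 0.989-fold, 0.889 to 1.10). In ob/+ the sum was lower in colon than in jejunum, 0.746-fold (0.667 to 0.835). As a share of all miRNA counts the sum was 0.191% in ob/ob jejunum against 0.127% in ob/+ jejunum, and 0.231% in ob/ob colon against 0.0927% in ob/+ colon.

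Within jejunum the sum was 1.45-fold higher in ob/ob than in ob/+ (counting interval 1.31 to 1.62), and within colon 1.92-fold higher (1.72 to 2.15). miR-7a-5p alone was 1.44-fold higher in jejunum (1.24 to 1.67) and 1.82-fold in colon (1.56 to 2.13), and miR-7b-5p 1.46-fold (1.25 to 1.71) and 2.05-fold (1.74 to 2.41). The authors' deposited table gives ratios of ob/ob over ob/+ of 1.33 in jejunum and 1.93 in colon for miR-7a-5p and of 1.35 and 2.17 for miR-7b-5p. Of the 322 entries tested, 226 had a lower jejunum ratio than miR-7a-5p and 256 a lower colon ratio, and 14.6% and 17.1% were at least 2-fold higher in ob/ob jejunum and colon. The sum's log2 ratio was 0.41 larger in colon than in jejunum (counting interval 0.18 to 0.63), with no replicate test.

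Over both tissues neither miR-7 entry passed in edgeR's test. The log2 change was 0.70 ± 0.23 SE for miR-7a-5p (adjusted p = 0.0943) and 0.79 ± 0.24 for miR-7b-5p (adjusted p = 0.0828), each higher in 2 of 2 tissues. Fitted as a single entry, a choice made after the fractions were seen, the sum had a log2 change of 0.74 ± 0.22 (adjusted p = 0.0769, range over 15 alternatives 0.00381 to 0.678). The result depended on the settings. miR-7a-5p passed under 6 of 15 alternatives and miR-7b-5p under 8. In edgeR the adjusted p-values of miR-7a-5p and miR-7b-5p were 0.0318 and 0.0154 under median-of-ratios scaling, 0.0315 and 0.0151 with the authors' factors, 0.0138 and 0.00610 with hairpin entries left out, 0.0291 and 0.0148 with a 100 CPM filter, and 0.0449 and 0.0434 with no tissue term. Leaving out ob/+ jejunum as well gave 0.0122 and 0.00912. In DESeq2 miR-7b-5p passed with the TMM sizes (adjusted p = 0.0429) and with its own (0.0314). Scaled to mappable reads in place of miRNA counts, in the same unit, the sum stood at 236 in ob/ob jejunum against 286 in ob/+ jejunum, and at 245 in ob/ob colon against 243 in ob/+ colon, and the fitted log2 change of the sum turned to -0.14 (adjusted p = 0.678), still above the median of -1.02 over all entries on that scale. On the same scale miR-375-3p stood at 1.14 in ob/ob jejunum against 24.7 in ob/+ jejunum and at 1.19 in ob/ob colon against 7.33 in ob/+ colon, so it was lower in ob/ob under either scale. By tissue, the sum had a log2 change, colon over jejunum, of -0.22 ± 0.22 (edgeR adjusted p = 0.955).

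**Figure D2:**
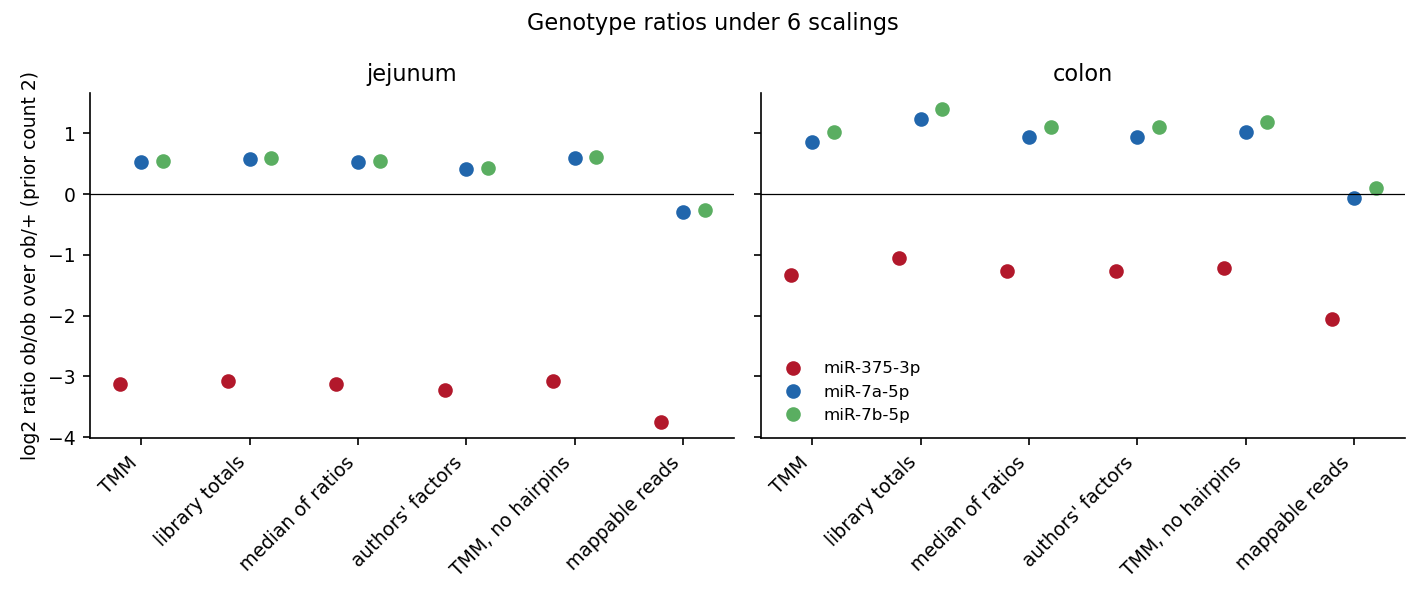
Log2 ratio of ob/ob over ob/+ for miR-375-3p, miR-7a-5p and miR-7b-5p in jejunum (left) and colon (right) under 6 scalings of the libraries, with a prior count of 2. miR-375-3p is below 0 under each; miR-7a-5p is above 0 (0.53 in jejunum and 0.86 in colon with TMM) except when scaled to mappable reads, where it is at -0.29 and -0.07.

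miR-7a-1-3p was at or below the floor of 3 counts in every library, with 0 counts in ob/ob jejunum, 1 in ob/+ jejunum, 0 in ob/ob colon and 3 in ob/+ colon. It was not tested, and no ratio is given. The gene-specific arm thus gives too few counts to tell how much of miR-7a-5p came from Mir7-1 and how much from Mir7-2.

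Among the other miRNAs listed as endocrine or islet-enriched, those that passed also fell in ob/ob. The 10 listed include miR-375-3p, miR-7a-5p and miR-7b-5p themselves, and 9 of the 10 were in the table. Of these, 6 were tested: the entries just named and miR-184-3p, miR-204-5p and miR-129-5p. Among the 6, 3 fell and 0 rose, against 10.2% and 7.76% of all entries. The 3 were miR-375-3p itself, miR-184-3p and miR-204-5p, so the count is not independent of miR-375-3p. miR-184-3p, known from islets and the eye, had deposited counts of 4.5 in ob/ob jejunum and 23 in ob/+ jejunum, and of 2 in ob/ob colon and 27 in ob/+ colon. Its log2 change was -2.52 ± 0.48 SE (edgeR adjusted p = 0.0324), and the call was lost in DESeq2, in limma-voom, with no abundance filter and without either ob/ob library. miR-204-5p, known from islets and pigmented epithelia of the eye, had 40 counts in ob/ob jejunum and 112 in ob/+ jejunum, and 32 in ob/ob colon and 147 in ob/+ colon. Its log2 change was -1.29 ± 0.28 (edgeR adjusted p = 0.0398), lost in limma-voom, in DESeq2 with its own size factors, with library totals alone, with no abundance filter and without either ob/ob library. miR-129-5p, mostly known from neurons, did not pass (log2 change 0.33 ± 0.32, adjusted p = 0.496) and held 47 counts in ob/ob jejunum, 50 in ob/+ jejunum, 57 in ob/ob colon and 75 in ob/+ colon. miR-216a-5p, a miRNA of pancreatic acinar cells, held 0 counts in each ob/ob library, against 6 in ob/+ jejunum and 2 in ob/+ colon. miR-153-3p held 3 counts, all in ob/+ jejunum, and miR-211-5p held 1, in ob/+ colon. The tested entries of the list, miR-375-3p and the miR-7 entries included, had a median log2 ratio of -0.71 in jejunum, against 0.02 over all entries tested. In colon their median was -0.24, against -0.21. The members of the list had been chosen with earlier results of these data known.

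Epithelial markers moved with miR-375-3p. Of 10 listed epithelial miRNAs, all were in the table, 8 were tested, and 5 fell (miR-200a-3p, miR-200b-3p, miR-200c-3p, miR-192-5p and miR-203-3p) and 0 rose in ob/ob, against 10.2% and 7.76% of all entries tested. The other 3 did not pass: miR-194-5p (log2 change -0.96 ± 0.31 SE, edgeR adjusted p = 0.0943), miR-215-5p (-0.53 ± 0.33, adjusted p = 0.292) and miR-205-5p (-2.02 ± 1.25, adjusted p = 0.286), which held at most 15 counts in a library and had ratios of opposite sign (log2 -2.52 for jejunum, 0.86 for colon). The summed level of all 10 epithelial miRNAs was 403 CPM in ob/ob jejunum against 2241 CPM in ob/+ jejunum, and 318 CPM in ob/ob colon against 1061 CPM in ob/+ colon. miR-141-3p and miR-429-3p, of the miR-200 family, were at 0 counts in each ob/ob library and were not tested. miR-141-3p held 2 counts in ob/+ jejunum and 3.3 in ob/+ colon, and miR-429-3p held 9 and 7.3. Zeros were common: of all 982 entries, 697 held a count in ob/ob jejunum, 614 in ob/+ jejunum, 600 in ob/ob colon and 627 in ob/+ colon. The most abundant on the epithelial list by its mean over the 4 libraries, though not in either ob/ob library, was miR-200b-3p, which maintains epithelial identity. It held 9 counts in ob/ob jejunum and 302 in ob/+ jejunum, and 12 in ob/ob colon and 179.5 in ob/+ colon. All 3 miRNAs of the miR-183 cluster, listed as sensory and neuroendocrine, fell as well. Their summed level was 38.0 CPM in ob/ob jejunum against 402 CPM in ob/+ jejunum, and 6.30 CPM in ob/ob colon against 126 CPM in ob/+ colon, where miR-182-5p and miR-96-5p were at 0 counts in ob/ob. The calls of these 5 epithelial miRNAs and of all 3 miRNAs of the cluster were lost with no abundance filter and without either ob/ob library, and those of miR-182-5p and miR-96-5p also without ob/+ jejunum. In limma-voom the calls of miR-200c-3p, miR-203-3p, miR-182-5p and miR-183-5p were lost too, and with no tissue term that of miR-96-5p. The part of epithelial cells in the level of miR-375-3p was not tested.

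**Figure D3:**
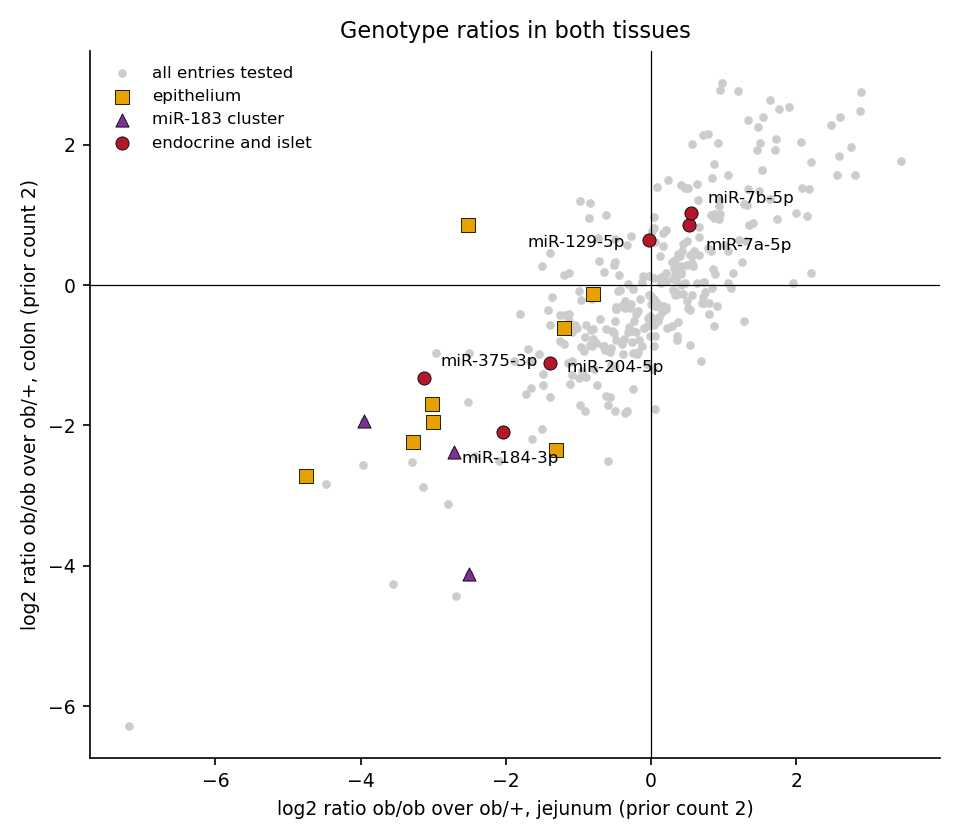
Log2 ratio of ob/ob over ob/+ in jejunum (x axis) and colon (y axis) for the 322 entries tested, with endocrine and islet miRNAs as red circles, epithelial miRNAs as orange squares and the miR-183 cluster as purple triangles. miR-375-3p, at -3.12 and -1.33, lies among the epithelial and miR-183 cluster points, and miR-7a-5p and miR-7b-5p lie above 0 on each axis. Other lists are not marked. Their members miR-199b-5p (-2.52 and -1.67), miR-214-3p (-3.14 and -2.87) and miR-122-5p (-3.96 and -2.57) also lie well below 0 on each axis.

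All 4 fibroblast and mesenchyme entries tested (miR-199a-5p, miR-199b-5p, miR-199b-3p and miR-214-3p) fell, against 10.2% of all entries, and the summed level of that list was 963 CPM in ob/ob jejunum against 4798 CPM in ob/+ jejunum and 888 CPM in ob/ob colon against 4995 CPM in ob/+ colon. The hepatocyte miRNA miR-122-5p fell, with 10 counts in ob/ob jejunum and 190 in ob/+ jejunum, and 9 in ob/ob colon and 125 in ob/+ colon. Of 6 neuronal and glial entries 1 fell, the activity-regulated miR-132-3p (log2 change -1.30 ± 0.30 SE, edgeR adjusted p = 0.0480), and of 6 leukocyte entries 1 rose, miR-342-5p (1.53 ± 0.34, adjusted p = 0.0403). These counts are near the shares of all entries, 10.2% lower and 7.76% higher. Of 4 smooth and striated muscle entries 0 passed in edgeR. The calls of these fibroblast, liver, neuronal and leukocyte entries were likewise lost with no abundance filter and without either ob/ob library, and those of miR-132-3p and miR-342-5p in DESeq2 and limma-voom as well. The call of miR-199b-5p was also lost in limma-voom, in DESeq2 with its own size factors and with library totals alone, that of miR-132-3p with library totals alone and that of miR-342-5p scaled to mappable reads. The neuronal and glial list, which is the other tissue class in which miR-7 is known, summed to 463 CPM in ob/ob jejunum against 580 CPM in ob/+ jejunum and to 469 CPM in ob/ob colon against 546 CPM in ob/+ colon. Its 6 tested entries were mixed. Log2 ratios in jejunum and colon were above 0 for miR-9-5p (0.17 and 0.74) and miR-338-3p (0.86 and 1.02). They were below 0 for miR-132-3p (-1.11 and -1.40), miR-124-3p (-0.70 and -0.49) and miR-138-5p (-0.55 and -1.14). miR-128-3p was at 0.01 and -0.46. The muscle list summed to 335851 CPM in ob/ob jejunum against 245058 CPM in ob/+ jejunum, and to 235718 CPM in ob/ob colon against 205785 CPM in ob/+ colon. The leukocyte list summed to 1445 CPM in ob/ob jejunum against 785 CPM in ob/+ jejunum, and to 1083 CPM in ob/ob colon against 716 CPM in ob/+ colon. Most of it was the 2 miR-342 arms. The other 5 leukocyte entries in the table, taken apart after their values were seen, summed to 104 CPM in ob/ob jejunum against 153 CPM in ob/+ jejunum, and to 135 CPM in ob/ob colon against 108 CPM in ob/+ colon. Of these, miR-142-3p, miR-150-5p, miR-155-5p and miR-223-3p had log2 ratios below 0 in jejunum, between -1.40 and -0.76, and miR-142-5p was at 0.94. In colon miR-142-5p (0.94), miR-150-5p (0.45) and miR-223-3p (1.20) were above 0, and miR-142-3p (-0.76) and miR-155-5p (-0.83) were below it. The part of any of these cell types in the miR-7 levels was not tested.

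The miRNAs with profiles most like that of miR-375-3p came from the epithelial, miR-183 cluster and endocrine lists. Likeness was the Euclidean distance between log2 CPM values centred on each entry's own mean over the 4 libraries, computed for the 322 entries tested and given as a description. The nearest were miR-200c-3p at a distance of 0.52, miR-192-5p at 0.60, miR-200a-3p at 0.67, miR-183-5p at 0.76 and miR-184-3p at 1.09, where the median entry was at 2.57. Each of the 5 had its highest level in ob/+ jejunum and its next highest in ob/+ colon. miR-7a-5p and miR-7b-5p, at 3.09 and 3.15, were farther from miR-375-3p than the median entry. miR-7a-5p itself lay at 0.14 from miR-7b-5p, with which it shares reads, and at 0.12 from let-7e-5p, 0.19 from let-7g-5p, 0.21 from miR-6240 and 0.21 from miR-30a-3p. The median entry was at 1.17 from it. Besides miR-7a-5p, the entries nearest to miR-7b-5p were miR-30e-3p at 0.20, let-7e-5p at 0.21, miR-1934-3p at 0.28 and let-7g-5p at 0.29. The let-7 guides are among the abundant miRNAs of these libraries, and miR-1934-3p rested on at most 6 counts in a library.

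**Figure D4:**
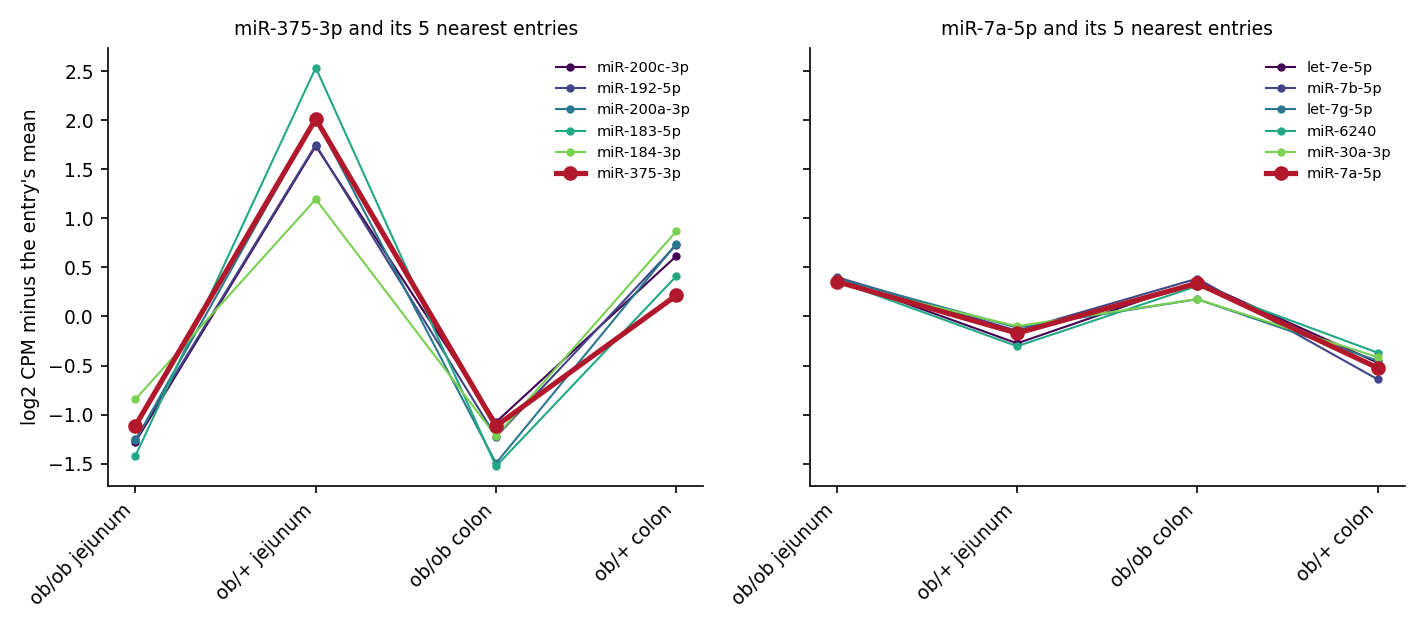
Log2 CPM centred on each entry's mean over the 4 libraries, for miR-375-3p with its 5 nearest entries (left) and miR-7a-5p with its 5 nearest entries (right); each line is 1 entry and each point 1 library. The miR-375-3p group is highest in ob/+ jejunum and low in each ob/ob library, and the miR-7a-5p group is slightly higher in each ob/ob library than in the ob/+ library of the same tissue.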

How the data were processed

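The 4 small RNA libraries, 1 per tissue and genotype, were made from sorted Kit-positive cells. Per the file headers, the authors trimmed adapters, discarded reads shorter than 15 nt, used mouse genome mm9 and counted reads on miRBase 20 entries. Neither the aligner nor the counter is named in these sources. The deposited raw values are estimated counts, between 87.7% and 89.8% of them whole per library (values above 0, within 1e-06). The authors' normalized signal is each raw value multiplied by a factor of its library. The authors' deposited ratio is ob/ob over ob/+ of that signal. Read totals, the other deposited values, come from the authors' statistics sheet. Small-intestine columns were taken as the jejunal libraries.

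After rounding to whole numbers, estimated counts were scaled by TMM (factors 0.973, 0.940, 1.19 and 0.920 in ob/ob jejunum, ob/+ jejunum, ob/ob colon and ob/+ colon). Entries averaging 10 CPM or more, 322 in all, were tested in edgeR 4.0.16 (glmQLFit and glmQLFTest, R 4.3.3) with the other factor as a term, 1 residual and 3.85 prior degrees of freedom, and Benjamini-Hochberg adjustment over all 322. The mean was taken over all 4 libraries. miR-375-3p, at 9.49 CPM in ob/ob jejunum and 9.45 in ob/ob colon, passed this filter through its ob/+ levels. The same held for miR-184-3p, miR-183-5p and miR-96-5p, which were also called lower. Each SE is the absolute log2 change divided by the square root of F and is not a spread between animals. The p-values rest on how far an effect differed between the levels of the other factor in these pooled libraries, moderated over entries by the prior. The tissues stand as the samples of a genotype, and no spread between animals is measured. Ratios within a pair of libraries have exact conditional binomial intervals and no test, and plain folds carry no prior count. The difference between tissues has the exact conditional interval of an odds ratio. DESeq2 1.42.0 used the TMM sizes or, as an addition, its own; limma 3.58.1 ran voom. Scripts were tested on simulated counts. Intervals and figures used Python 3.11.15, scipy 1.17.1 and matplotlib 3.10.9. Sequences came from RefSeq tables (GRCm38.p6), for which coordinates are not given because the files use mm9.

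All entries matching the names are described, with the 5 nearest entries of each tested member, the listed endocrine miRNAs with at least 10 CPM in 1 library, the most abundant miRNA of other lists or its summed level, and further list members named after their values were seen. Members and the 8 lists (endocrine and islet, epithelium, miR-183 cluster, neuron and glia, muscle, fibroblast, leukocyte, liver) were chosen with earlier results of these data known. Summing miR-7a-5p and miR-7b-5p was decided after the counts were seen.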

Additional observations from a re-analysis of the deposited data

How the results depend on the processing

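The direction of miR-375-3p by genotype was kept under all 14 alternatives and its call under 7 of them. With all libraries, the call was lost with library totals without TMM (log2 change -2.75, adjusted p = 0.0541), with no abundance filter (-2.90), in limma-voom (-2.79) and in DESeq2 with its own size factors (-2.69). With 1 library left out and no term for the other factor it ranged from -3.58 to -1.52, and was lost without ob/ob jejunum (-2.89), ob/ob colon (-2.76) or ob/+ jejunum. At 100 CPM it was not tested. The genotype effects of miR-7a-5p, miR-7b-5p and their sum passed under median-of-ratios scaling (0.74, 0.83 and 0.78), the authors' factors (0.68, 0.77 and 0.72), hairpin entries left out (0.81, 0.90 and 0.85), a 100 CPM filter (0.70, 0.79 and 0.74) and no tissue term (0.69, 0.77 and 0.73). In DESeq2 miR-7b-5p and the sum passed with the TMM sizes (0.79 and 0.74) and with its own (0.83 and 0.78). In the median-of-ratios, authors' factors, hairpin, mappable-read and 100 CPM fits the estimated prior degrees of freedom were infinite. Scaled to mappable reads the genotype effects reversed to -0.18, -0.086 and -0.14, and that of miR-129-5p to -0.55. With 1 library left out they ranged from 0.52 to 1.01, 0.54 to 1.18 and 0.53 to 1.11, and passed without ob/+ jejunum (adjusted p = 0.0122, 0.00912 and 0.0101).

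Within tissues, scaling to mappable reads moved the ob/ob over ob/+ log2 ratios of miR-7a-5p, miR-7b-5p and the sum to -0.29, -0.27 and -0.28 in jejunum and to -0.067, 0.10 and 0.011 in colon, and the sum's colon over jejunum ratio in ob/+ to -0.23. Library totals alone gave 1.23, 1.40 and 1.31 for the colon ratios and 0.27, 0.27 and 0.27 for colon over jejunum in ob/ob.

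By tissue no member passed under any alternative. With 1 library left out the fits had no genotype term, so they cannot separate tissue from genotype. In these fits miR-375-3p ranged from -2.70 to 1.03, miR-7a-5p from -0.72 to 0.22, miR-7b-5p from -0.88 to 0.23 and the sum from -0.84 to 0.23. Without ob/ob jejunum the last 3 were 0.14, 0.11 and 0.12.

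Of all entries tested, 33 were called lower and 25 higher by genotype in edgeR. The counts were 56 and 58 under median-of-ratios scaling, 67 and 55 with the authors' factors, 160 lower scaled to mappable reads, 2 and 0 with no abundance filter, 21 and 13 in limma-voom, and higher 44 with library totals, 58 without hairpin entries and 41 with no tissue term. With 1 library left out they ranged from 2 to 44 lower and from 0 to 50 higher. By tissue 0 entries were called, or 2 lower under median-of-ratios scaling, the authors' factors or no hairpin entries, and 0 with 1 library left out. The cause of these shifts was not tested. No paired analysis was possible because each group had 1 library; the other factor's term stands in its place. Counts of 3 and 4 limit what miR-375-3p can show in ob/ob.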
